A study of Homo sapiens with 12 samples.

Results

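The 10 genes described here are genes of ferroptosis and of the NRF2 antioxidant response: SLC7A11, GPX4, GCLC, GCLM, NQO1, TXNRD1, HMOX1, SRXN1, AIFM2 and ACSL4. They were picked by symbol out of a deposited table of 57353 rows, since sorafenib has been tied to cystine import and to ferroptosis. All 10 have a row, and all 10 were among the 14955 genes with enough counts to test. The samples are HepG2 cells, a human liver cancer line labelled wild type, and every group comes from this single line. Cells received 10 µM sorafenib, a multikinase inhibitor given in liver cancer, or the vehicle DMSO, for 12 h. All cultures were then exposed to cycloheximide, which holds ribosomes on mRNA, and lysates were spun through sucrose gradients. The 4 groups, with 3 libraries each, are sorafenib polysome, vehicle polysome, sorafenib light and vehicle light. The light pool holds low-molecular complexes, free ribosomal subunits and single ribosomes.

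Ferroptosis is a form of cell death driven by iron-dependent peroxidation of membrane lipids. SLC7A11 imports cystine, the enzyme formed by GCLC and GCLM starts the synthesis of glutathione from it, and GPX4 uses glutathione to reduce lipid peroxides, while ACSL4 supplies the polyunsaturated lipids that are oxidised. NRF2 (gene NFE2L2), a transcription factor that KEAP1 marks for degradation, drives many antioxidant genes through antioxidant response elements, among them NQO1, TXNRD1, SRXN1, HMOX1, GCLC, GCLM and SLC7A11.

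Library totals ranged from 511065 to 13336689 counts. The sorafenib light fraction was the shallowest group, with totals of 2060384, 511065 and 4989312. Its replicates correlated at 0.80 to 0.93 (log2 CPM over all tested genes), against 0.95 to 0.99 within the other groups, and its library 3 correlated at 0.92 to 0.93 with the sorafenib polysome libraries. The labels give sorafenib polysome library 3 the same sample index as vehicle light library 1. All 10 hepatocyte marker genes had counts in every library, and they summed to 3.42% to 4.03% of counts in sorafenib polysome, 1.20% to 2.46% in vehicle polysome, 3.33% to 3.53% in sorafenib light and 0.621% to 1.23% in vehicle light libraries. Their shift with treatment stands beside every sorafenib comparison given here, and its part in them was not tested. The 9 markers of immune, endothelial and stromal cells summed to at most 0.00744% of any library. Of these 9, CD68, a lysosomal protein, held most counts, and each of the others had at most 9 counts in a library. Values below are CPM, a gene's counts over the library total times 1e6, after TMM scaling, a level relative to the other genes of a library. Each library is a bulk pool, so more cells with an mRNA and more of it per cell cannot be told apart. No unfractionated RNA was analysed here, so more mRNA on polysomes and more mRNA in all cannot be told apart either.

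On polysomes, sorafenib went with higher levels of the cystine importer, the lipid ligase ACSL4, the reductases AIFM2, NQO1 and TXNRD1, and with lower levels of GPX4 and SRXN1. Of the 10 members 5 rose and 2 fell by edgeR's quasi-likelihood test, and 3 did not pass at an adjusted p under 0.05. Over all genes tested, 20.9% rose and 28.8% fell in this comparison. The members' median log2 fold change was 0.55, against -0.26 for all genes tested. Computing TMM within each fraction moved the median of all genes to -0.03, with 3917 rises and 3143 falls over all genes in place of 3130 and 4306, and 6 members then rose and 2 fell. Without both shallow sorafenib light libraries 6 members rose and 2 fell, beside 4365 rises and 3463 falls over 15905 genes. Without sorafenib polysome library 3, 4 rose and 2 fell, beside 2442 and 3156 over 16332 genes. In 5 members every sorafenib library stood above every vehicle library, and in 3 below, against 25.3% and 35.0% of all genes.

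**Figure D1:**
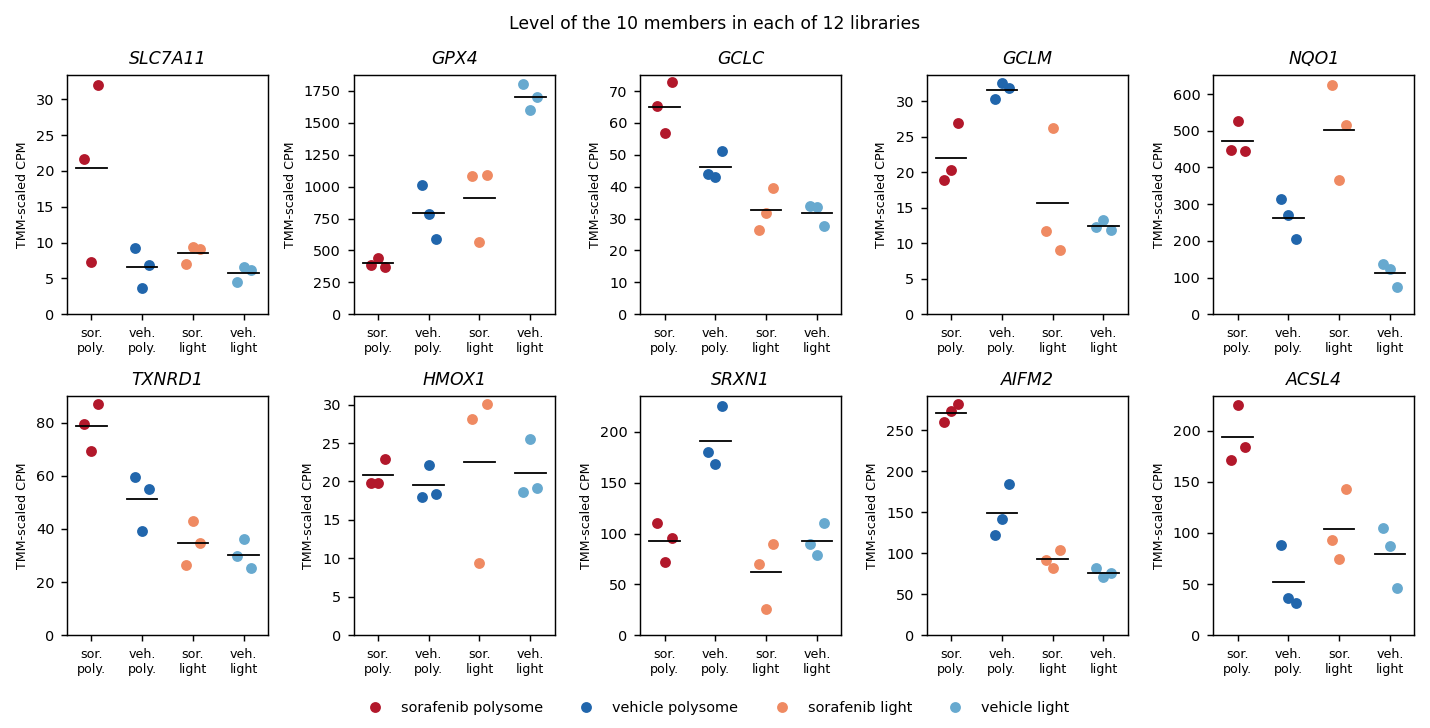
TMM-scaled CPM (linear axes from 0) of each member in each of 12 libraries, with points for libraries and a line for the mean of 3 libraries per group. ACSL4 and AIFM2 stand apart by treatment on polysomes, GPX4 is lower with sorafenib in both fractions, and NQO1 is separated most in the light fraction.

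SLC7A11 encodes the transport chain of the cystine-glutamate exchanger. It had 21.7, 7.34 and 32.0 CPM in sorafenib polysome libraries, against 9.24, 3.72 and 6.93 CPM in vehicle polysome libraries. Sorafenib library 2 lay below vehicle library 1, so the groups overlap, although the other sorafenib libraries were above every vehicle library. The log2 fold change was 1.57 ± 0.40 (SE, n = 3 per group, edgeR adjusted p = 0.00308), or 1.83 above the median of all genes, and it passed in 22 of 22 alternatives that could test it. Light libraries of SLC7A11 had 7.05, 9.35 and 9.11 CPM with sorafenib, against 4.45, 6.58 and 6.22 CPM with vehicle. The light groups do not overlap, but these levels rest on 12, 5 and 39 counts in sorafenib libraries and on 28, 54 and 30 counts in vehicle libraries. The light-fraction log2 fold change of 0.55 ± 0.50 did not pass (edgeR adjusted p = 0.427). The partner chain SLC3A2, which brings SLC7A11 to the membrane, had 637, 316 and 523 CPM in sorafenib polysome libraries, against 54.4, 28.7 and 49.9 CPM in vehicle polysome libraries. Its log2 fold change there was 3.47 ± 0.40 (edgeR adjusted p = 2.96e-06), and 1.63 ± 0.38 in the light fraction (edgeR adjusted p = 0.00345).

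GCLC is the catalytic and GCLM the modifier subunit of glutamate-cysteine ligase, and on polysomes neither passed the test, with estimates of opposite sign. GCLC had 65.3, 57.0 and 72.9 CPM in sorafenib polysome libraries, against 44.1, 42.9 and 51.2 CPM in vehicle polysome libraries. The groups do not overlap, yet the log2 fold change of 0.50 ± 0.21 narrowly missed the threshold (edgeR adjusted p = 0.0549). GCLC passed in 16 of 24 alternatives, with 0.72 when TMM was computed within each fraction (edgeR adjusted p = 0.00711). It also passed with any 1 of the 6 light-fraction libraries left out, at 0.74 to 0.77 (edgeR adjusted p = 0.00451 to 0.0164). GCLM had 18.9, 20.3 and 27.0 CPM in sorafenib polysome libraries, against 30.3, 32.6 and 31.9 CPM in vehicle polysome libraries. All 3 sorafenib libraries were lower, at a log2 fold change of -0.52 ± 0.25 (edgeR adjusted p = 0.0866), and with limma voom and the culture as a random block GCLM passed at -0.55 (adjusted p = 0.0376). Light-fraction log2 fold changes were 0.07 ± 0.23 for GCLC and 0.04 ± 0.31 for GCLM, and the sign of each depended on the setting.

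GPX4, a selenium-containing peroxidase that reduces lipid hydroperoxides within membranes, fell in both fractions. It had 387, 441 and 368 CPM in sorafenib polysome libraries, against 1010, 789 and 592 CPM in vehicle polysome libraries. The groups do not overlap, and the log2 fold change was -0.999 ± 0.29 (SE, n = 3 per group, edgeR adjusted p = 0.00786), or -0.74 against the median of all genes. Light libraries of GPX4 had 1083, 563 and 1090 CPM with sorafenib, against 1807, 1604 and 1702 CPM with vehicle. All sorafenib libraries were below all vehicle libraries, the shallowest being the lowest, at -0.90 ± 0.29 (edgeR adjusted p = 0.0251). The polysome call was lost without sorafenib light library 1 (adjusted p = 0.0589), sorafenib light library 3 (0.0533) or vehicle light libraries 1, 2 and 3 in turn (0.0802, 0.0846 and 0.0728), at -0.75 to -0.73. None of these is a polysome library: leaving one out also changed which genes were kept, the scaling and the shared spread. The light-fraction call was lost without sorafenib light library 1 (-0.94, adjusted p = 0.0792), sorafenib light library 2 (-0.53, 0.113), or vehicle light libraries 1, 2 and 3 in turn (-0.81, -0.87 and -0.86, with 0.119, 0.0948 and 0.0803). Without both shallow libraries it was -0.49 (adjusted p = 0.295).

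AIFM2, also called FSP1, regenerates the ubiquinol that traps lipid radicals and acts in parallel with GPX4. It had 260, 273 and 282 CPM in sorafenib polysome libraries, against 123, 142 and 185 CPM in vehicle polysome libraries. RefSeq places MACROH2A2, listed under its older name H2AFY2 with 6791 counts against 18891 for AIFM2, over part of the gene, and whether their reads were separated was not tested. The groups do not overlap, and the log2 fold change of 0.86 ± 0.21 (SE, n = 3 per group, edgeR adjusted p = 0.00274) passed in 24 of 24 alternatives. Among light libraries it had 91.6, 82.3 and 104 CPM with sorafenib, against 81.6, 71.2 and 76.6 CPM with vehicle, and 0.29 ± 0.22 did not pass (edgeR adjusted p = 0.336).

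ACSL4 activates arachidonic and related fatty acids for membrane phospholipids, and unlike the other members described so far it makes the substrate of peroxidation. It showed the largest rise of the 10 on polysomes. It had 172, 225 and 184 CPM in sorafenib polysome libraries, against 88.5, 36.3 and 31.8 CPM in vehicle polysome libraries. Every sorafenib library was above every vehicle library, and the log2 fold change of 1.88 ± 0.36 (SE, n = 3 per group, edgeR adjusted p = 3.27e-04) passed in 24 of 24 alternatives. Light libraries of ACSL4 had 93.4, 74.8 and 143 CPM with sorafenib, against 105, 87.6 and 46.3 CPM with vehicle. The light groups overlap, and 0.41 ± 0.36 did not pass (edgeR adjusted p = 0.405).

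**Figure D2:**
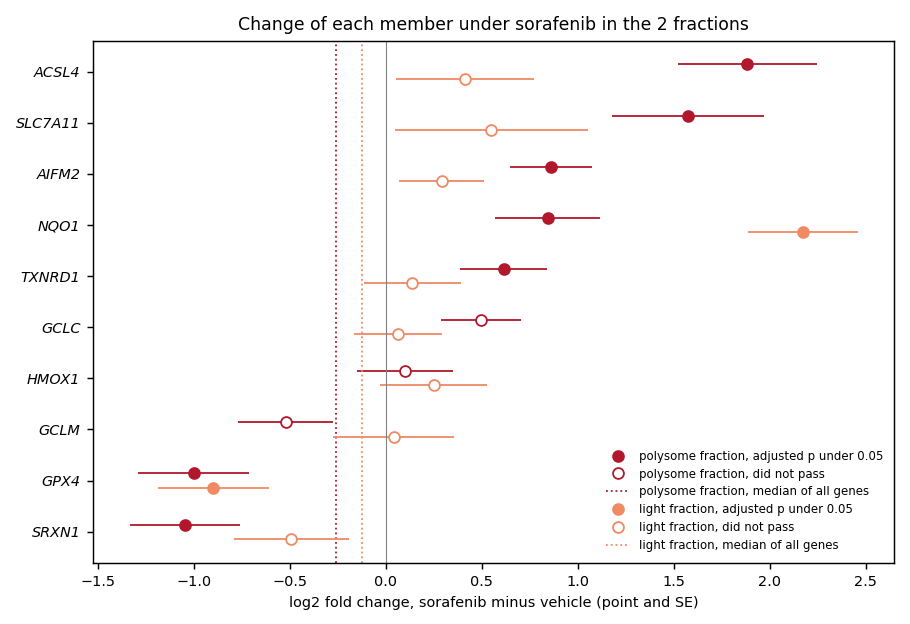
Log2 fold change (sorafenib minus vehicle) with its SE for the 10 members, polysome fraction above light fraction. Filled points passed at an adjusted p under 0.05 and dotted lines are the medians of all genes tested, -0.26 on polysomes and -0.12 in the light fraction. NQO1 at 2.17 in the light fraction is the largest change, and ACSL4 at 1.88 the largest on polysomes.

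NQO1, a quinone reductase often read as a marker of NRF2 activity, rose in both fractions. It had 446, 527 and 444 CPM in sorafenib polysome libraries, against 314, 272 and 205 CPM in vehicle polysome libraries. Light libraries had 626, 367 and 514 CPM with sorafenib, against 136, 124 and 74.9 CPM with vehicle. Neither pair of groups overlaps. The log2 fold change was 0.84 ± 0.27 on polysomes (edgeR adjusted p = 0.0158) and 2.17 ± 0.29 in the light fraction (edgeR adjusted p = 4.82e-05, n = 3 per group). The light-fraction rise passed in 24 of 24 alternatives. The polysome rise did not pass without sorafenib polysome library 2 (0.75, adjusted p = 0.0673) or vehicle polysome library 3 (0.68, adjusted p = 0.0940).

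TXNRD1, cytosolic thioredoxin reductase and like GPX4 a selenoprotein, had 79.5, 69.4 and 87.0 CPM in sorafenib polysome libraries, against 59.5, 39.2 and 55.1 CPM in vehicle polysome libraries. All sorafenib libraries were higher, at a log2 fold change of 0.61 ± 0.23 (SE, n = 3 per group, edgeR adjusted p = 0.0303). The call was lost without sorafenib polysome library 1 (0.59, adjusted p = 0.0965), sorafenib polysome library 3 (0.53, 0.137) or vehicle polysome library 2 (0.45, 0.162). Light levels of TXNRD1 were 26.4, 43.0 and 34.6 CPM with sorafenib, against 29.8, 36.1 and 25.3 CPM with vehicle. These groups overlap, at 0.14 ± 0.25 (edgeR adjusted p = 0.709). RefSeq places the pseudogene RPL18AP3 within the span of TXNRD1, and its own row holds 4505 counts against 5964 for TXNRD1. Whether the authors' counting separated them was not tested.

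SRXN1, sulfiredoxin, repairs over-oxidised peroxiredoxins and fell on polysomes. It had 111, 72.1 and 95.8 CPM in sorafenib polysome libraries, against 180, 169 and 226 CPM in vehicle polysome libraries. The groups do not overlap, at a log2 fold change of -1.04 ± 0.29 (SE, n = 3 per group, edgeR adjusted p = 0.00583). The call was lost without vehicle light library 1, 2 or 3, at -0.77 each time (edgeR adjusted p = 0.0600, 0.0609 and 0.05001, the last just above the threshold). Light libraries of SRXN1 had 69.9, 26.2 and 89.7 CPM with sorafenib, against 90.1, 78.6 and 110 CPM with vehicle. The lowest of these rests on 14 counts, and -0.49 ± 0.30 did not pass (edgeR adjusted p = 0.227).

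HMOX1, heme oxygenase, releases iron from heme and is repressed by BACH1. It had 19.8, 19.8 and 22.9 CPM in sorafenib polysome libraries, against 17.9, 22.1 and 18.4 CPM in vehicle polysome libraries. Light libraries of HMOX1 had 28.2, 9.35 and 30.1 CPM with sorafenib, against 18.6, 25.6 and 19.1 CPM with vehicle. Both pairs of groups overlap, and the value of 9.35 CPM rests on 5 counts. The log2 fold changes were 0.10 ± 0.25 on polysomes (edgeR adjusted p = 0.756) and 0.25 ± 0.28 in the light fraction (edgeR adjusted p = 0.521).

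In the light fraction 1 of the 10 members rose, NQO1, and 1 fell, GPX4, while 8 did not pass. Over all genes tested 11.7% rose and 17.7% fell there, and the members' median of 0.19 compares with -0.12 for all genes. In 3 members every sorafenib library was above every vehicle library, and in 1 below, against 15.0% and 24.6% of all genes. The split over all genes depends on the scaling: 1752 rose and 2648 fell with TMM, against 3650 and 1316 with library totals, where the median of all genes was 0.31, AIFM2 also rose (0.76, edgeR adjusted p = 0.0109) and GPX4 did not pass (-0.45, 0.156). Without both shallow libraries a single sorafenib light library is left, its spread being taken from the other groups, and then NQO1 rose and GPX4 did not pass.

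The polysome and light libraries of 1 number come from the same culture, so the members can be compared between fractions. With sorafenib 3 members were higher on polysomes (GCLC, TXNRD1 and AIFM2) and 1 in the light fraction (GPX4), against 13.4% and 12.4% of all genes tested. With vehicle 5 were higher on polysomes (GCLM, NQO1, TXNRD1, SRXN1 and AIFM2) and 1 in the light fraction (GPX4 again), against 18.3% and 17.8% of all genes. Levels did not overlap between the fractions in 4 members that were higher and 1 that was lower on polysomes with sorafenib (22.1% and 16.3% of all genes), and in 6 and 1 with vehicle (23.2% and 25.1%). The sorafenib call of GCLC was lost without both shallow libraries (0.84, edgeR adjusted p = 0.0528). The vehicle call of TXNRD1 was lost without vehicle polysome library 1 (0.66, adjusted p = 0.0519), vehicle light library 1 (0.76, 0.0650) or vehicle light library 3 (0.65, 0.0852), and that of SRXN1 without vehicle light library 2 (0.98, 0.0579). With the culture as a fixed block, 5 members were higher on polysomes with sorafenib, as SLC7A11 (1.43, edgeR adjusted p = 0.00820) and ACSL4 (0.90, 0.0132) then passed. In the vehicle comparison that block brought a second member, ACSL4 (-0.68, adjusted p = 0.0404), among those higher in the light fraction. These ratios are relative to the other genes: TMM computed within each fraction put the median of all genes at 0.79 with sorafenib and 0.58 with vehicle. Over all genes 7041 were then higher and 740 lower on polysomes with sorafenib, in place of 2002 and 1855, and 5932 and 1129 with vehicle, in place of 2742 and 2659. Among the members 8 and 6 were then higher on polysomes, and GPX4 did not pass in either treatment (-0.41 and -0.44, edgeR adjusted p = 0.256 and 0.232).

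AIFM2 was the most polysome-shifted member under sorafenib. Its polysome level over its light level was 2.84, 3.32 and 2.71 in sorafenib cultures 1 to 3, against 1.50, 2.00 and 2.41 in vehicle cultures. Every sorafenib culture was higher, though the share of all genes with such a separation was not counted. The difference of 0.57 ± 0.31 on the log2 scale did not pass (edgeR adjusted p = 0.191). It passed without sorafenib light library 3 (0.97, adjusted p = 0.0406), as did that of GCLC (0.96, 0.0445), and with at least 10 counts in every library (0.74, 0.0357). GPX4 stood at 0.357, 0.784 and 0.338 in sorafenib cultures, against 0.559, 0.492 and 0.348 in vehicle cultures, all below 1. The sorafenib and vehicle cultures of GPX4 overlap, and its fraction difference was -1.20 ± 0.29 with sorafenib (edgeR adjusted p = 0.00550) and -1.10 ± 0.29 with vehicle (edgeR adjusted p = 0.00600). The sorafenib value did not pass without sorafenib light library 1 (-0.89, adjusted p = 0.0837) or 3 (-0.73, 0.0938), nor the vehicle value without vehicle polysome library 3 (-0.92, 0.05001).

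SLC7A11 had ratios of 3.08, 0.784 and 3.52 in sorafenib cultures, against 2.07, 0.566 and 1.11 in vehicle cultures, so the cultures overlap and culture 2 was the lowest in each treatment. GCLC had 2.47, 1.79 and 1.84 in sorafenib cultures, against 1.30, 1.28 and 1.86 in vehicle cultures. GCLM, its partner subunit, had 1.61, 0.775 and 2.96 in sorafenib cultures, against 2.48, 2.45 and 2.70 in vehicle cultures. The spread of GCLM over the sorafenib cultures was wider than over the vehicle cultures, its light level in culture 2 resting on 14 counts. TXNRD1 had 3.01, 1.61 and 2.52 in sorafenib cultures, against 2.00, 1.09 and 2.18 in vehicle cultures. SRXN1 had 1.58, 2.75 and 1.07 in sorafenib cultures, against 2.00, 2.15 and 2.05 in vehicle cultures. HMOX1 had 0.704, 2.12 and 0.759 in sorafenib cultures, against 0.964, 0.866 and 0.965 in vehicle cultures, with the value of 2.12 resting on 5 light counts. For all 6 of these genes the ratios of the treatments overlap.

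The change under sorafenib was compared between the fractions by an interaction test. Of the 10 members, 1 passed with a positive difference and 1 with a negative one. Both counts are near the shares of all genes, 12.8% and 10.7%. NQO1 had a polysome level 0.713, 1.44 and 0.864 times its light level in sorafenib cultures, against 2.31, 2.20 and 2.73 times in vehicle cultures. The cultures do not overlap, at an interaction of -1.33 ± 0.39 on the log2 scale (edgeR adjusted p = 0.0177). ACSL4 had ratios of 1.84, 3.00 and 1.29 in sorafenib cultures, against 0.841, 0.415 and 0.687 in vehicle cultures. These do not overlap either, at 1.47 ± 0.50 (edgeR adjusted p = 0.0401). The share of all genes whose culture ratios do not overlap between treatments was not counted. Both calls are close to the threshold. The NQO1 call was kept without sorafenib polysome library 2, vehicle polysome library 3 or sorafenib light library 2, and was lost without each of the other 9 libraries, with -1.45 to -0.87 over the 12 (adjusted p up to 0.154, without vehicle light library 3). The ACSL4 call was kept without sorafenib polysome library 1, vehicle polysome library 1, sorafenib light library 3 or vehicle light library 3, and was lost without each of the other 8, with 1.25 to 2.11 over the 12 (adjusted p up to 0.0976, without vehicle polysome library 2). Without both shallow sorafenib light libraries ACSL4 was at 1.15 (adjusted p = 0.233). SLC7A11, at 1.02 ± 0.63 (edgeR adjusted p = 0.260), passed without sorafenib polysome library 2 (1.45, adjusted p = 0.0389).

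**Figure D3:**
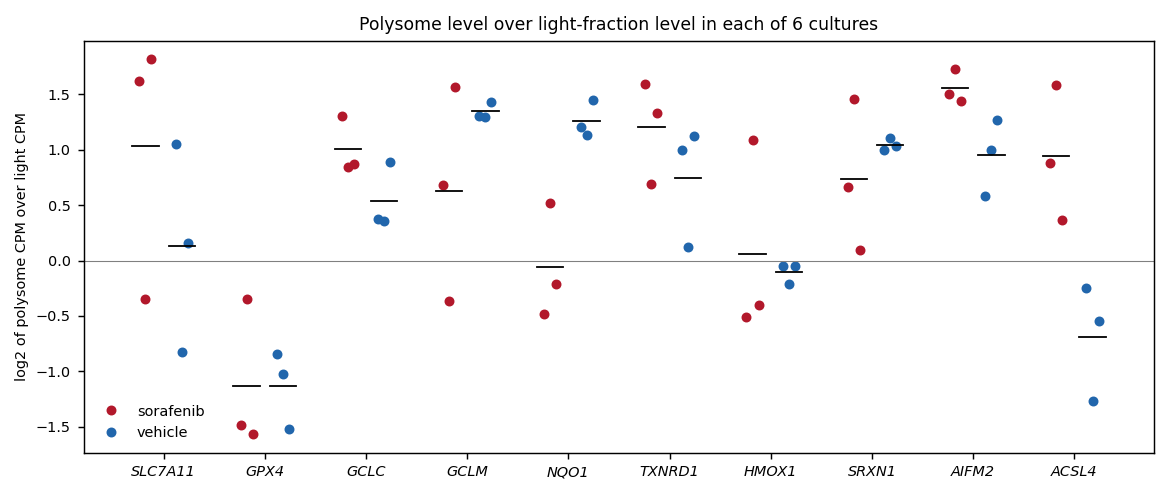
Log2 of the polysome CPM over the light-fraction CPM of the same culture, for each member in 3 sorafenib and 3 vehicle cultures, with lines at the means. NQO1 lies lower, and ACSL4 and AIFM2 higher, in all sorafenib cultures than in any vehicle culture, although the AIFM2 difference did not pass the interaction test. The share of all genes without such overlap was not counted. GPX4 is below 0 in all 6.

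Antioxidant response elements were looked for in RefSeq promoters of GRCh38.p14, which list windows of 300 bases around the gene starts for 8 of the members, 11 windows in all. The core TGACNNNGC, read on both strands, was present for 3 of the 8, GCLM, TXNRD1 and AIFM2. By window it was in 4 of the 11, against 13.35% of 35116 promoter windows. Counted from the start as base 1, with -1 before it, the core lies at -34 to -26 in GCLM, at -99 to -91 and -8 to 1 at the first start of TXNRD1, at -102 to -94 at the other, and at -22 to -14 in AIFM2. In AIFM2 it overlaps a match to TGANTCA, the AP-1 motif, which 7.71% of windows hold. The motif TGATGCAA, bound by ATF4 with C/EBP factors, was in 0 of the 11 windows, against 0.87% of all windows. The stretches with a match are shown 5′ to 3′ for the 250 bases before and the first 10 after the start, with the core in capitals on either strand. They lie at chr1:93909421-93909680 (minus strand) for GCLM, chr12:104215529-104215788 and chr12:104286782-104287041 (plus strand) for TXNRD1 and chr10:70132816-70133075 (minus strand) for AIFM2.
GCLM: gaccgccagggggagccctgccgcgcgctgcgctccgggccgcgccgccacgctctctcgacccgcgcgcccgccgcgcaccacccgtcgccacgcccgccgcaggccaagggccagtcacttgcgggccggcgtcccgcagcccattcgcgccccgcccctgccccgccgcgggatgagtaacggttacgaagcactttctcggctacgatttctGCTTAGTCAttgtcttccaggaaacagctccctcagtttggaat
TXNRD1 first start: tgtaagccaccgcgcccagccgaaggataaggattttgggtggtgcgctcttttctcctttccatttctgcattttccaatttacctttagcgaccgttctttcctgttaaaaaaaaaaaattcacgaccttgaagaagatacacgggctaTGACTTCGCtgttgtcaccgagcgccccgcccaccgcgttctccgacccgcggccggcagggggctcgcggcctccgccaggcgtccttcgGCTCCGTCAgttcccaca
TXNRD1 second start: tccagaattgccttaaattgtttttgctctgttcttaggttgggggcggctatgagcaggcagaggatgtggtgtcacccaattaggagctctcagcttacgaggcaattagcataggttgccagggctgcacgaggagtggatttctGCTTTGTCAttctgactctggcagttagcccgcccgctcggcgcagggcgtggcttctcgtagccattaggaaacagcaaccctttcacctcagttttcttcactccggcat
AIFM2: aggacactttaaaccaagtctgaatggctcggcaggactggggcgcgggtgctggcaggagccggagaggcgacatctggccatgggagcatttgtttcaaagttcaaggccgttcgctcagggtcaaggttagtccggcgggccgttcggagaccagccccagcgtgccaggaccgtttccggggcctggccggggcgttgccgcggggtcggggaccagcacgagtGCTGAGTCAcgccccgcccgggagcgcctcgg
Of these, TXNRD1 and AIFM2 rose on polysomes and GCLM, at -0.52, did not pass. Of the members with a window but no match, NQO1 (0.84) and ACSL4 (1.88) also rose there. GPX4 and SRXN1 fell and GCLC did not pass. SLC7A11 and HMOX1 had no window listed, and sequence outside the windows was not searched.

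The genes around the members were grouped in 10 lists, and those named without an error had SEs of 0.20 to 0.40 on polysomes and 0.24 to 0.44 in the light fraction, with edgeR adjusted p up to 0.00219 and 0.0292 for genes named by p within a list. The lists were chosen with earlier results of these data known. Every list count on polysomes, as first computed, stands beside 20.9% of all genes rising and 28.8% falling. In the light fraction these shares are 11.7% and 17.7%. Of 12 regulators of the NRF2 pathway, 7 rose on polysomes and 1 fell, with a median of 0.82 against -0.26 for all genes. NFE2L2 itself had 315, 345 and 352 CPM in sorafenib polysome libraries, against 197, 125 and 139 CPM in vehicle polysome libraries. It rose by 1.13 ± 0.28 on polysomes (edgeR adjusted p = 0.00271) and 0.76 ± 0.28 in the light fraction (edgeR adjusted p = 0.0497, groups overlapping). KEAP1, its negative regulator, fell in the light fraction (-0.96 ± 0.24, edgeR adjusted p = 0.00508) and was at -0.43 on polysomes (edgeR adjusted p = 0.0978). The light-fraction fall of KEAP1 did not pass with library totals, and its sorafenib light levels rest on 42, 13 and 155 counts. The repressor BACH1 rose on polysomes (0.71 ± 0.25, edgeR adjusted p = 0.0223), as did the small MAF partner MAFF (1.72) and DPP3 (2.44), a peptidase that binds KEAP1, and RBX1 (-1.67), a subunit of its ubiquitin ligase, fell. Light levels of 2 of the 12 rose and of 3 fell, against 11.7% and 17.7% of all genes. With library totals 4 rose and 0 fell, beside 3650 and 1316 of all genes.

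Of 34 other NRF2 target genes tested, 13 rose and 4 fell on polysomes (median 0.56). With TMM computed within each fraction 19 rose and 2 fell, beside 3917 and 3143 of all genes. Without sorafenib polysome library 3, 12 rose and 2 fell, beside 2442 and 3156 of 16332 genes. Their median was 0.81 without both shallow libraries, where that of all genes was -0.04. Of these 34 targets 17 rose and 6 fell in the light fraction (median 0.66, against -0.12 for all genes). The dehydrogenase PGD (2.05), which makes NADPH in the pentose phosphate pathway, and its transketolase TKT (1.44) rose on polysomes. Biliverdin reductase B (BLVRB, 1.80) and the glutathione transferase GSTM3 (1.87) rose in the light fraction, where the ferritin chains FTH1 (-1.69 ± 0.37, edgeR adjusted p = 0.00247) and FTL (-1.77 ± 0.39, 0.00248) fell. On polysomes FTH1 (0.55 ± 0.36, edgeR adjusted p = 0.213) and FTL (0.59 ± 0.38, 0.207) did not pass. Their interactions were 2.25 ± 0.52 (edgeR adjusted p = 0.00417) and 2.35 ± 0.54 (0.00408). Processed copies of the ferritin genes could share their reads, which was not tested.

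Glutathione synthesis and use showed no single direction: of 24 genes tested 5 rose and 11 fell on polysomes (median -0.49), and 8 rose and 0 fell in the light fraction (median 0.24). Glutathione synthetase GSS rose in both (1.42 and 1.49) and 5-oxoprolinase OPLAH on polysomes (2.37), whereas glutaredoxin GLRX fell there (-1.82). CHAC1, a glutathione-degrading enzyme and known stress target, had at most 2 counts in any library and was not tested. Of 19 genes of cystine and cysteine supply 9 rose and 3 fell on polysomes (median 0.31), with SLC3A2 above, the neutral amino acid carrier SLC1A4 (1.38) and the transaminase GOT1 (1.48) among the rises. Light levels of 3 rose and of 3 fell, against 11.7% and 17.7% of all genes. MAT2A, which makes S-adenosylmethionine, was among the falls (-2.62).

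Of 19 other selenoproteins 3 rose and 12 fell on polysomes (median -0.78). The methionine sulfoxide reductase MSRB1 (-1.51) and the selenophosphate synthetase SEPHS2 (-1.14) fell and SELENOI (1.08), a lipid phosphotransferase, rose. Under 4 other scalings, without both shallow libraries and without sorafenib polysome library 3, 9 to 10 fell and 3 rose. Light levels of 3 rose and of 1 fell, SELENOW (-2.68). The 14 genes of the selenocysteine machinery split into 5 rises and 5 falls on polysomes (median 0.26), with the seryl-tRNA synthetase SARS at 2.07 and the selenocysteine lyase SCLY at -1.24. Of 22 thioredoxin and peroxiredoxin genes 3 rose and 7 fell on polysomes (median -0.25, or -0.27 to 0.01 in those 6 settings), catalase CAT (2.28) rising and mitochondrial thioredoxin TXN2 (-0.96) falling. Light levels of 10 rose, PRDX2 (1.87) among them, and 1 fell, the thioredoxin inhibitor TXNIP (-1.88).

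Of 18 genes tested that shape the lipid substrates, 7 rose and 1 fell on polysomes (median 0.34), and 6 rose and 2 fell in the light fraction (median 0.76). The cytochrome P450 reductase POR (2.60) and the fatty acid ligase ACSL1 (1.67) rose on polysomes, and the spermidine acetyltransferase SAT1 fell in both fractions (-1.40 and -1.15). The 5 lipoxygenase genes listed had at most 4 counts in any library and were not tested. Of 24 genes for coenzyme Q and other suppressors 8 rose and 7 fell on polysomes (median -0.08, or -0.04 to 0.18 in the same 6 settings), with COQ8A (1.50), needed for coenzyme Q synthesis, and the chaperone HSPA5 (2.19) rising and CISD1 (-1.77), an iron-sulfur protein of the outer mitochondrial membrane, falling. Of 13 iron supply genes 8 rose and 1 fell on polysomes (median 0.71), among them the transferrin receptor TFRC (1.93), the ferritin autophagy receptor NCOA4 (1.63) and the iron regulatory protein ACO1 (2.69). TFRC was at -0.47 in the light fraction (edgeR adjusted p = 0.206), where 2 of the 13 rose and 3 fell. Without sorafenib polysome library 3, 5 NRF2 regulators, 6 coenzyme Q genes and 6 iron genes rose on polysomes, beside 2442 of 16332 genes. With TMM within each fraction those lists gave 8, 9 and 9, beside 3917 of 14955. In the light fraction 1615 of 16332 genes rose without that library, and 3650 of 14955 with library totals. Counts of several lists moved with the same 6 settings. In the light fraction 2 to 12 of the lipid genes, 1 to 10 of the coenzyme Q genes, 1 to 7 of the other selenoproteins, 7 to 14 of the thioredoxin genes and 7 to 13 of the glutathione genes rose. So did 1 to 5 of the cystine genes and 1 to 4 each of the NRF2 regulators and the iron genes. On polysomes 3 to 6 of the glutathione genes, 3 to 5 of the thioredoxin genes and 3 to 7 of the selenocysteine genes rose, and 4 to 7 and 3 to 5 of the last pair of lists fell.

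**Figure D4:**
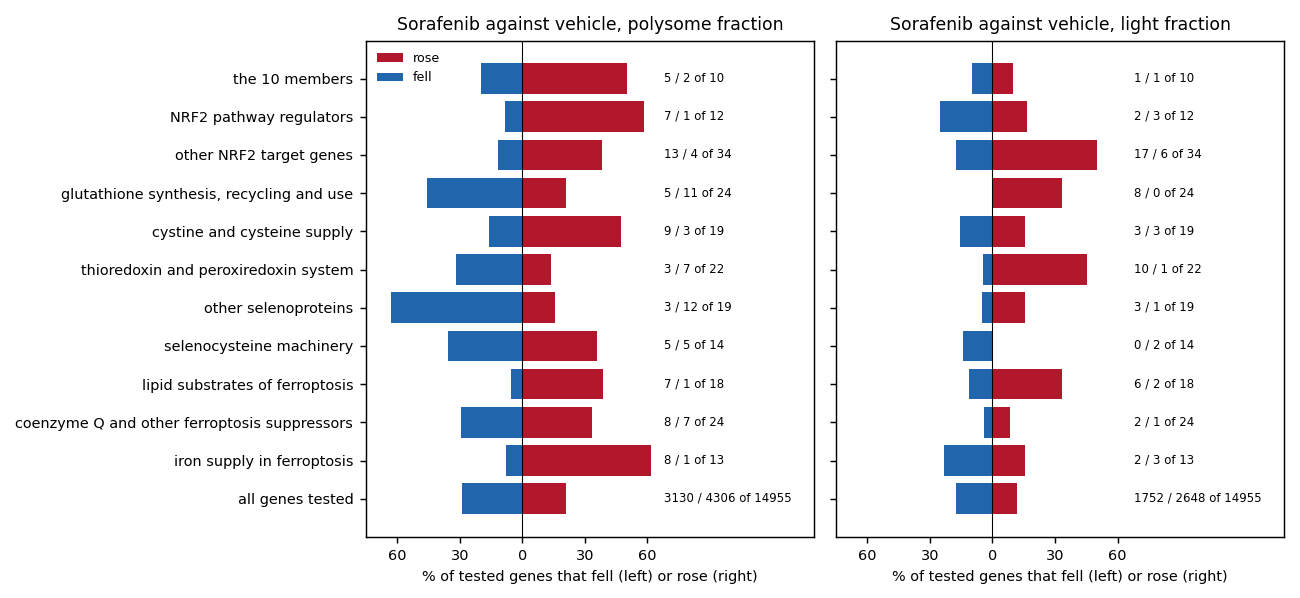
Share of tested genes that rose (right) or fell (left) with sorafenib in each fraction, for the 10 members, 10 lists of related genes and all genes tested, with the counts of rises and falls. The other selenoproteins hold 12 falls of 19 on polysomes, and iron supply 8 rises of 13, against 3130 rises and 4306 falls of 14955 genes in all.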

How the data were processed

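RNA was measured in 12 libraries of pooled gradient fractions, grouped by the sample titles. The authors deposited whole-number counts per gene without normalization. The build is GRCh38.p12 according to the labels, per the submitters' processing notes. Aligner, counter, annotation and strand setting: not given in the sources used here. SLC7A11 and its antisense gene (14 counts in all) may therefore share reads.

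All tests across genes were run in R 4.3.3 with edgeR 4.0.16, and alternatives also with limma 3.58.1 and DESeq2 1.42.0. Of the rows, 14955 passed edgeR's default expression filter for 4 groups; the 42398 others held at most 4.54% of a library. The 12 libraries were scaled by TMM and fitted together by quasi-likelihood on their 4 groups, with no block, and p-values were adjusted over all genes tested (Benjamini-Hochberg, threshold 0.05). Each SE was obtained from the coefficient and its F statistic, and log2 CPM used a prior count of 2. Both fractions of a number come from 1 culture by the labels. Deviations from the group means correlated between them at 0.05, 0.04 and 0.04 in sorafenib and 0.14, -0.07 and 0.33 in vehicle cultures. No 2 replicates of a group agreed within sampling noise, with a chi-square of 9.97 to 50.7 per degree of freedom. If the triplicates are not separate cultures, p-values measure only technical spread.

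The members, the 10 gene lists, which share some genes, and the tests were chosen with earlier results of these data known. Named genes are the members, up to 3 genes per list by lowest polysome p and 2 by lowest light-fraction p, 9 set genes and the nearest 3 genes of 3 members. Not all of them are reported here. Alternatives covered scaling, filters, tool, blocks, depth and left-out libraries; the culture as a fixed block was added after seeing the data. On data simulated for the polysome comparison (14294 genes), 98.5% of 4-fold, 32.8% of 2-fold and 2.99% of 1.5-fold changes were recovered, and for the interaction (14312 genes) 72.7%, 2.99% and 1.49%. Only 66 to 67 genes per fold were changed, in 1 group and at a mean of at least 10 CPM. In the data 3130 genes rose and 4306 fell on polysomes, so these rates do not give the share recovered there. Promoters were read from RefSeq (GRCh38.p14), and figures drawn with matplotlib 3.10.9.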

Additional observations from a re-analysis of the deposited data

Results flagged for a closer look

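In 2 members the interaction term of the fit, the change under sorafenib compared between the fractions, passed, 1 positive and 1 negative. These counts are near the shares over all genes tested, 12.8% with a positive and 10.7% with a negative difference. Leaving out 1 library at a time lost the NQO1 call in 9 of 12 repeats and the ACSL4 call in 8 of 12. The polysome change minus the light-fraction change was -1.33 for NQO1 (SE 0.39, edgeR adjusted p = 0.0177), which was higher with sorafenib in 3 of 3 libraries of each fraction and more so in the light one. It was 1.47 for ACSL4 (SE 0.50, edgeR adjusted p = 0.0401), which was higher with sorafenib in 3 of 3 polysome libraries and overlapped between treatments in the light fraction. The other 8 members did not pass, so a difference between the fractions is not shown for them. Groups of 3 libraries were not tested for outliers.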

How the results depend on the processing

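Over 25 alternatives the members gave 1205 repeated results: 1011 kept direction and side of the threshold, 62 lost the call, 75 gained one and 57 changed sign. None of the 57 had passed as first computed, and 2 passed with the other sign. The cause was not tested for any of them. Depth limits the sorafenib light libraries, where SLC7A11, GCLM, HMOX1 and SRXN1 rest on 5 to 14 counts in library 2.

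Leaving out 1 library at a time gave 4 to 6 rises and 0 to 2 falls on polysomes, beside 2442 to 4232 and 2577 to 4059 over all genes. The light fraction gave 1 rise and 0 to 1 falls, beside 1297 to 2370 and 1412 to 2877. Interactions were 0 to 3 positive and 0 to 1 negative, beside 1428 to 2836 and 813 to 1612. Members higher on polysomes were 3 to 6 with sorafenib and 4 to 6 with vehicle, beside 1459 to 3441 and 2016 to 3116. Those higher in the light fraction were 0 to 1 and 0 to 2, beside 946 to 2491 and 1924 to 2974. The all-gene counts are out of 15224 to 16350 genes tested. These repeats also gave light-fraction changes of -0.19 to 0.31 for GCLC and -0.17 to 0.39 for GCLM. Polysome minus light ranged over -0.13 to 0.27 for NQO1 and -0.36 to 0.27 for HMOX1 with sorafenib, and over -0.21 to 0.090 for HMOX1 and -0.039 to 0.49 for SLC7A11 with vehicle. The interaction ranged over -0.24 to 0.33 for GPX4, -0.24 to 0.37 for HMOX1 and -0.72 to 0.077 for SRXN1.

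Without the low-count filter 45832 genes were tested: 0 members fell on polysomes and 0 in the light fraction, where GCLC was at -0.050 and GCLM at -0.080. Over all genes 1663 then fell on polysomes and 2415 in the light fraction. With sorafenib 7 members were higher on polysomes and 0 in the light fraction, with NQO1 at 0.55 and HMOX1 at 0.33, beside 4719 and 2483 of all genes. With vehicle 0 members were higher in the light fraction, beside 1913 of all genes. There were 2 positive and 0 negative interactions, with GPX4 at 0.41 and HMOX1 at 0.36, beside 2822 and 663 of all genes. With at least 10 counts in every library, light-fraction changes were -0.080 for GCLC, -0.10 for GCLM and -0.0041 for TXNRD1. Then 2 members were higher in the vehicle light fraction and 2 interactions were positive, with GPX4 at 0.072, beside 1619 and 1331 of 5521 genes. With library totals 2 members rose and 0 fell in the light fraction, beside 3650 and 1316 of all genes. Higher on polysomes were 7 with sorafenib (NQO1 at 0.48, HMOX1 at 0.35) and 8 with vehicle (HMOX1 at 0.75, ACSL4 at 0.28), where 5587 and 7314 of 14955 genes were higher and 914 and 876 lower. Then 0 members were higher in the vehicle light fraction, and 0 interactions were positive, beside 1210 positive ones over all genes.

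With TMM within each fraction 8 members were higher on polysomes and 0 in the light fraction with sorafenib (NQO1 at 0.70, HMOX1 at 0.52). With vehicle 0 were higher in the light fraction (HMOX1 at 0.52, ACSL4 at 0.062), and interactions were 0.032 for GPX4 and 0.0037 for HMOX1. The deepest library as TMM reference gave 0.024 for that of GPX4. Only the libraries compared gave 0 falls among the members in the light fraction, beside 1818 over 12925 genes. Without both shallow libraries GCLM was at -0.30 and SRXN1 at 0.11 in the light fraction. NQO1 was then at 0.0095 between the sorafenib fractions, and the interaction of GCLM was 0.043. Thinning to 511065 counts gave light-fraction changes of -0.032 for TXNRD1 and -0.047 for HMOX1, and -0.038 for GCLM between the sorafenib fractions. It also gave 3 members higher on polysomes with vehicle, beside 1029 over 7721 genes, and 0.068 for the interaction of HMOX1.

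The replicate block moved several of the counts. With the culture as a fixed block 5 members, in place of 3, were higher on polysomes with sorafenib, beside 2271 of all genes. With vehicle 2 members, in place of 1, were then higher in the light fraction, beside 2853. As a random block (limma voom, correlation 0.11) 6 rose and 3 fell on polysomes, in place of 5 and 2, beside 3397 and 4559 of all genes. Light-fraction GCLM was then at -0.14 and the interaction of GPX4 at 0.015. With the number as a fixed block, SLC7A11 passed between the sorafenib fractions (1.30, adjusted p = 0.0270). On polysomes 5 members then rose and 2 fell, beside 3134 and 4172 of all genes.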

Other observations

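As a description over the 12 libraries, which share treatment and fraction, the genes whose log2 CPM followed SLC7A11 most closely were CNNM4 (Pearson r = 0.89), RAPGEF6 (0.88) and ERN1 (0.88), out of 14954 others. For GPX4 they were GTF3A, RPS28P7 and AC034236.1, each at r = 0.98, the second being a pseudogene that may share reads with its parent gene. For HMOX1 they were OLA1P1 (0.93), AC008760.2 (0.92) and TCP10L (0.91), all with a low mean log2 CPM of 0.99 to 2.33. Among the members, GCLC and AIFM2 (0.94), GCLC and TXNRD1 (0.94) and TXNRD1 and AIFM2 (0.89) were the most alike, and GPX4 and AIFM2 (-0.87) the least.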
